A study of Mus musculus with 9 samples.

Results

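Chemokine receptors are G protein-coupled receptors that steer T cells along gradients of small secreted proteins, and the set a T cell carries decides which tissues it can enter. Naive T cells use Ccr7 to enter lymph nodes, and antigen contact usually replaces this receptor with others that guide cells to inflamed or mucosal sites. The 7 receptors described here were Ccr7, Ccr9, Cxcr4, Cxcr5, Ccr6, Ccr4 and Cx3cr1, taken by matching the RefSeq accession in each probe set name to the gene. They were 7 of the 909 genes that could be named on the array and had 8 of its 1246 probe sets. Ccr9 had 2 probe sets and each of the other receptors had 1.

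RNA came from purified CD8 T cells of the B10D2 mouse strain that carried a transgenic T cell receptor, all labelled female. Deletion cells had been stimulated in vivo by a weak antigen signal, anergy cells by a strong one, and naive cells were the control. Each group had 3 Affymetrix GLYCOv4 arrays, a custom design centred on glycosylation genes. The labels give neither the age of the mice nor the time after antigen nor whether each array had its own mouse, so the p-values rest on the spread among these arrays alone, which may be technical.

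Replicate arrays of a group correlated at 0.995 to 0.998, and the first principal component, with 82.9% of the variance, set naive apart from both other groups. Anergy replicate 3 stood apart: its log2 values scattered around the group means with an SD of 0.166, while the other 8 arrays had 0.0943 to 0.128. It was the lowest of the 3 anergy arrays for 6 of the 7 receptors and the highest for Cx3cr1, and naive replicate 3 was likewise the lowest naive array for 6. These counts take Ccr9 by its brighter probe set. In the dimmer one anergy replicate 3 was the highest anergy array. Without anergy replicate 3, of the 6 receptors called in anergy against naive, Ccr4 alone lost its call. Of 10 markers listed for CD8 T cells Cd2 alone was measured, at 10.01 in deletion, 9.40 in anergy and 11.58 in naive cells (mean log2), and neither CD8 chain was used here. All values are deposited log2 expression values, so that 1 unit is a 2-fold difference. No detection call was used here, and differences in level between probe sets were not read as differences in transcript amount. Marker sums of linear levels, given below, weigh the brightest probe sets most and were not read as amounts of transcript or of cells.

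**Figure D1:**
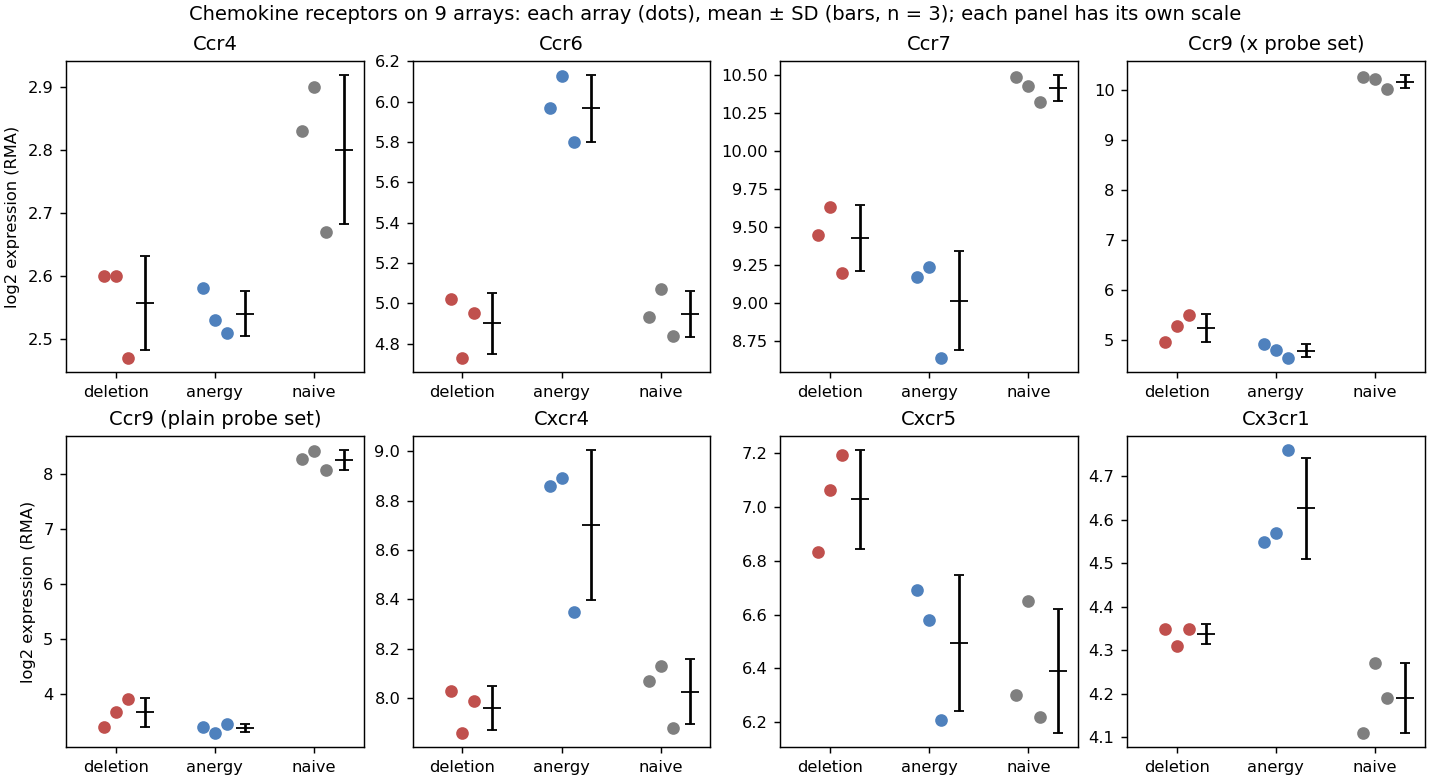
Log2 expression of each receptor (vertical axis, own scale per panel) on the 3 deletion, 3 anergy and 3 naive arrays, with dots for arrays and bars for the mean ± SD. Ccr9 and Ccr7 sit lower in both antigen-exposed groups than in naive cells, whereas Ccr6 and Cxcr4 sit higher in anergy cells than in deletion and naive cells.

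Set against naive cells, both antigen-exposed groups had less Ccr9 and less Ccr7 transcript. Ccr6, Cxcr4 and Cx3cr1 rose in anergy cells, and none of them passed the test in deletion cells. Cxcr5 rose in deletion cells and did not pass the test in anergy cells. The test was limma over all 1246 probe sets, with a threshold of 0.05 on the Benjamini-Hochberg adjusted p. In deletion against naive, 1 of the 7 receptors was higher and 3 were lower, where the array as a whole had 8.51% higher and 10.5% lower. In anergy against naive, 3 were higher and 3 lower, where the array as a whole had 10.8% higher and 16.1% lower. Both comparisons share the naive arrays.

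The median absolute log2 difference over the 7 receptors was 0.24 in deletion against naive, beside 0.09 over all probe sets, and 0.67 in anergy against naive, beside 0.12. Arrays of the 2 groups did not overlap for 5 receptors in deletion against naive and for 6 in anergy against naive, whereas this held for 31.5% and 33.9% of all probe sets. The count of 7 genes is small, and nothing particular to chemokine receptors was tested from it. The receptors were also chosen with earlier results of these data known. That choice can favour larger differences than over the array, here and between deletion and anergy cells.

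**Figure D2:**
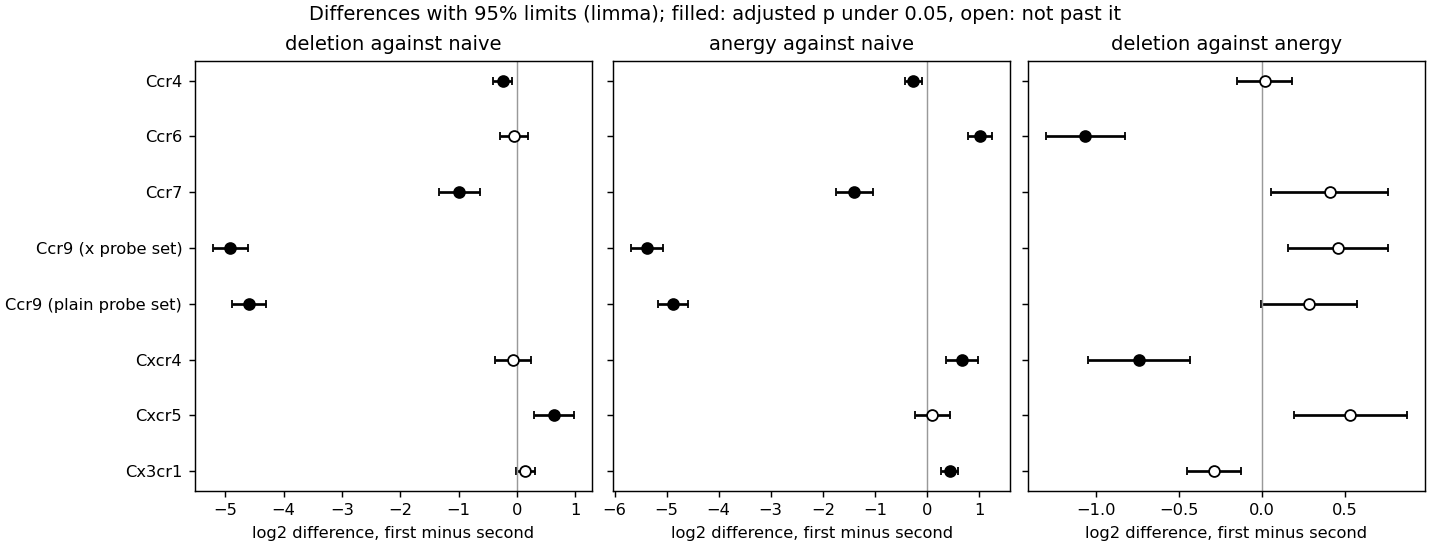
Log2 differences of the 8 probe sets in the 3 comparisons (horizontal axes, each with its own range), as points with 95% limits, filled where the adjusted p was under 0.05. The 2 probe sets of Ccr9 lie farthest from 0 in both comparisons with naive cells, at -4.92 and -4.59 in deletion and at -5.38 and -4.88 in anergy.

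Ccr9 binds Ccl25, a chemokine of the small intestine and thymus, and guides T cells to the gut. In its brighter probe set the log2 values were 4.96, 5.28 and 5.51 in deletion replicates 1 to 3, 4.92, 4.80 and 4.65 in anergy replicates 1 to 3, and 10.26, 10.22 and 10.02 in naive replicates 1 to 3. All 6 antigen-exposed arrays lay far below all 3 naive arrays, and deletion arrays lay above anergy arrays. Ccr9 was thereby 30.2-fold lower in deletion than in naive cells (95% limits 24.5 to 37.2; adjusted p = 4.5e-09) and 41.5-fold lower in anergy than in naive cells (33.8 to 51.1; adjusted p = 1.91e-09). This was the second largest fall of the 1246 probe sets in both comparisons.

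The brighter Ccr9 probe set carries the suffix x, which marks probes that can bind other sequences. The dimmer one carries no such suffix, and its values were 3.40, 3.67 and 3.91 in deletion, 3.39, 3.29 and 3.45 in anergy, and 8.27, 8.42 and 8.07 in naive cells. It gave folds of 24.1 lower in deletion and 29.4 lower in anergy than in naive cells, and thus fell by somewhat less than its partner. In this probe set deletion and anergy arrays overlapped. The gap between the 2 probe sets was 1.56 to 1.61 log2 units on the deletion arrays, 1.20 to 1.53 on the anergy arrays and 1.80 to 1.99 on the naive arrays. Without a detection call, whether the antigen-exposed values lie at background is not known. In a bulk sample, fewer cells with the transcript and less transcript per cell cannot be told apart.

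The 250 bases before the annotated start of Ccr9 (RefSeq, GRCm38.p6, chr9:123766961-123767210, plus strand) are shown because Ccr9 changed most. Capitals mark matches, on either strand, to any of 5 short motifs. The E box, bound by E proteins, was searched as CANNTG. The core of sites bound by the factor NFAT was searched as GGAAA. Sites of STAT factors were searched with the letters TTCNNNGAA. Sites of FOXO factors, which control homing genes in T cells, were searched as GTAAACA. The TATA box, where the basal machinery binds, was searched as TATAAA.
Ccr9: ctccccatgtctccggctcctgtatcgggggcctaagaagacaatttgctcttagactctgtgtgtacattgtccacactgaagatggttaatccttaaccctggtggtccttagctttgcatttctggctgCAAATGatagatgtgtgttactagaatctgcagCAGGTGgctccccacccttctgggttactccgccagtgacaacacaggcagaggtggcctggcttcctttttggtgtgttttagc
The window held 2 E boxes, beginning 118 and 85 bases before the start, and no match to the other motifs. E boxes were present in 66.2% of the 32851 mouse windows of this length. Windows were found for 5 of the 7 receptors, Ccr7 and Cxcr5 being named only.

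Ccr7 is the receptor of Ccl19 and Ccl21 that takes naive T cells into lymph nodes. Its log2 values were 9.45, 9.63 and 9.20 in deletion, 9.17, 9.24 and 8.64 in anergy, and 10.49, 10.43 and 10.32 in naive cells. All 6 antigen-exposed arrays lay below all 3 naive arrays, while deletion and anergy arrays overlapped. Ccr7 was 1.98-fold lower in deletion than in naive cells (1.55 to 2.53; adjusted p = 0.00136) and 2.63-fold lower in anergy than in naive cells (2.06 to 3.36; adjusted p = 9.57e-05). Without anergy replicate 3 the log2 difference of anergy from naive cells was -1.21, against -1.40 with it.

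Cxcr4, the receptor of Cxcl12 that holds cells in bone marrow and other stromal niches, had log2 values of 8.03, 7.86 and 7.99 in deletion, 8.86, 8.89 and 8.35 in anergy, and 8.07, 8.13 and 7.88 in naive cells. All anergy arrays lay above the other 6, which overlapped with each other. Cxcr4 was 1.59-fold higher in anergy than in naive cells (1.29 to 1.97; adjusted p = 0.00402), and its difference between deletion and naive cells was -0.07 ± 0.14 (SE; 95% limits -0.37 to 0.24).

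Cxcr5, which binds Cxcl13 and leads B cells and follicular T cells into follicles, had log2 values of 6.83, 7.06 and 7.19 in deletion, 6.69, 6.58 and 6.21 in anergy, and 6.30, 6.65 and 6.22 in naive cells. Deletion arrays were the highest, and anergy and naive arrays overlapped. Cxcr5 was 1.55-fold higher in deletion than in naive cells (1.23 to 1.97; adjusted p = 0.0138), a call held in 14 of 18 alternative settings and lost without moderation of the variances (adjusted p = 0.0774) and without deletion replicate 3 (0.0568), naive replicate 1 (0.0603) or naive replicate 3 (0.0626). In anergy against naive cells its difference was 0.10 ± 0.15 (SE). Of the 4 measured B cell markers, Cd22 and Cd83 rose and Cd72 fell against naive cells, in deletion and in anergy cells alike. Their summed linear level was 437 to 601 in deletion, 360 to 415 in anergy and 543 to 622 in naive cells, and their part in the Cxcr5 result was not tested.

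Ccr6 binds Ccl20 and marks T helper 17 cells, B cells and some memory CD8 T cells. Its log2 values were 5.02, 4.73 and 4.95 in deletion, 5.97, 6.13 and 5.80 in anergy, and 4.93, 5.07 and 4.84 in naive cells. Anergy arrays stood above the other 6, and deletion and naive arrays overlapped. Ccr6 was 2.03-fold higher in anergy than in naive cells (1.72 to 2.39; adjusted p = 5.24e-05), while the difference of deletion from naive cells was -0.05 ± 0.11 (SE; 95% limits -0.28 to 0.19). Its probe set carries the suffix s, which marks probes shared by several transcripts.

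Cx3cr1, the fractalkine receptor found on monocytes, natural killer cells and terminally differentiated effector CD8 T cells, had log2 values of 4.35, 4.31 and 4.35 in deletion, 4.55, 4.57 and 4.76 in anergy, and 4.11, 4.27 and 4.19 in naive cells. The 3 groups did not overlap, but the whole range over the 9 arrays was 0.65. Cx3cr1 was 1.35-fold higher in anergy than in naive cells (1.21 to 1.52; adjusted p = 0.00118), and in deletion cells the difference was 0.15 ± 0.07 (SE; adjusted p = 0.248). Its probe set has the suffix s too. Of 4 granulocyte, erythroid and platelet markers Siglecf alone passed, higher in both antigen-exposed groups, with sums of 43 to 47 in deletion, 46 to 47 in anergy and 43 to 46 in naive cells. Of 7 macrophage and dendritic cell markers none rose and 1 fell in anergy against naive cells, with summed linear levels of 174 to 181 in anergy and 217 to 226 in naive cells. Of 4 natural killer cell markers Klrk1 rose and Klrd1 fell, with sums of 1359 to 1505 in anergy and 2596 to 2937 in naive cells. These sums were nearly all Klrd1, with mean log2 values of 10.48 in anergy and 11.40 in naive cells. Klrk1, Klra8 and Klra4 averaged 3.66, 3.24 and 2.10 in anergy cells. The part of any of these cell types in the Cx3cr1 result was not tested.

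Ccr4 binds Ccl17 and Ccl22 and leads T cells to skin. Its log2 values were 2.60, 2.60 and 2.47 in deletion, 2.58, 2.53 and 2.51 in anergy, and 2.83, 2.90 and 2.67 in naive cells, a dim probe set whose mean ranked at percentile 13.1 of the array. Antigen-exposed arrays lay below the naive ones, by 0.24 ± 0.07 for deletion cells (SE; adjusted p = 0.0459) and by 0.26 ± 0.07 for anergy cells (adjusted p = 0.0251). These were 1.18-fold and 1.20-fold differences, and the calls held in 7 and 13 of 17 alternative settings. Without anergy replicate 3 the adjusted p of anergy against naive was 0.054. Of 3 measured markers of CD4 and regulatory T cells, Il2ra rose in anergy against naive cells and none passed in deletion. Their summed linear levels were 25 to 28 in deletion, 38 to 43 in anergy and 25 to 26 in naive cells. Il4 and Il17a passed in no comparison, so the higher sum in anergy cells rests on Il2ra alone. CD4 and regulatory T cells can carry Ccr4 and Ccr6, and their part in either result was not tested.

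In the comparison between both kinds of tolerance, Ccr6 and Cxcr4 were lower in deletion than in anergy cells, and no receptor was higher. Ccr6 was 2.09-fold lower in deletion cells (95% limits 1.78 to 2.47; adjusted p = 0.000368), the fourth largest fall of all probe sets. Cxcr4 was 1.67-fold lower (1.35 to 2.07; adjusted p = 0.0191). These were 2 of 7 receptors lower and 0 higher, where the array as a whole had 1.28% lower and 2.09% higher. For 5 receptors the arrays of the 2 groups did not overlap, which held for 16.6% of all probe sets. This count takes Ccr9 by its brighter probe set, and by its dimmer one, whose deletion and anergy arrays overlapped, it would be 4. Since both groups were set against the same naive arrays, this comparison is also the test of whether their changes from naive cells differed.

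The call of Ccr6 held in all 18 alternative settings, with log2 differences of -1.15 to -0.98. The call of Cxcr4 held in 11 of 18 and was lost after each array was centred on the common median (adjusted p = 0.0597), in a fit of the 2 groups only, without moderation of the variances, and without any 1 of deletion replicates 2 and 3 or anergy replicates 1 and 2. Without anergy replicate 3 the Cxcr4 difference was -0.915 (adjusted p = 0.00122) and that of Ccr6 was -1.15 (adjusted p = 0.00122). The counts over the array were 26 higher and 16 lower, which became 13 and 13 after median centring and 32 and 38 after quantile normalization.

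The other 5 receptors did not pass between deletion and anergy cells. Their log2 differences were 0.53 ± 0.15 for Cxcr5 (SE; adjusted p = 0.0990), 0.46 ± 0.13 for the brighter probe set of Ccr9 (adjusted p = 0.103), 0.41 ± 0.16 for Ccr7 (adjusted p = 0.234), -0.29 ± 0.07 for Cx3cr1 (adjusted p = 0.0642) and 0.02 ± 0.07 for Ccr4 (adjusted p = 0.928). Their 95% limits were 0.19 to 0.87, 0.16 to 0.76, 0.06 to 0.76, -0.45 to -0.13 and -0.15 to 0.18, so none of these results shows that the 2 groups were alike. The dimmer Ccr9 probe set, without the suffix x, gave a smaller difference of 0.28 ± 0.13 with limits that include 0 (-0.01 to 0.57; adjusted p = 0.343). The brighter Ccr9 probe set passed without deletion replicate 1 (adjusted p = 0.0295), and Cx3cr1 passed after quantile normalization (0.0238) and with array weights (0.0403).

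By group, Ccr9, Ccr7 and Ccr4 were highest in naive cells, and for these the deletion and anergy means did not differ past the threshold. For Ccr6 and Cxcr4 anergy cells were highest, and deletion and naive means did not differ past the threshold. Cx3cr1 was ordered anergy, deletion and naive from the top, with only the outer pair past the threshold. Cxcr5 was ordered deletion, anergy and naive, again with only the outer pair past it.

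Upstream sequences of Ccr6 (chr17:8235793-8236042, plus strand) and Cxcr4 (chr1:128592300-128592549, minus strand) are shown because these were the receptors that differed between deletion and anergy cells. They give the 250 bases before the annotated start, from RefSeq on GRCm38.p6, with capitals as for Ccr9.
Ccr6: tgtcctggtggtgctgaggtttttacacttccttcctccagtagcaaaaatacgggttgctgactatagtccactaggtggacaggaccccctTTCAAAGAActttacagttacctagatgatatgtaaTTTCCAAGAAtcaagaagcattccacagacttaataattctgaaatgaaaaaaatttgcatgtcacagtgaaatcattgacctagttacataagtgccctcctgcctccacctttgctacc
Cxcr4: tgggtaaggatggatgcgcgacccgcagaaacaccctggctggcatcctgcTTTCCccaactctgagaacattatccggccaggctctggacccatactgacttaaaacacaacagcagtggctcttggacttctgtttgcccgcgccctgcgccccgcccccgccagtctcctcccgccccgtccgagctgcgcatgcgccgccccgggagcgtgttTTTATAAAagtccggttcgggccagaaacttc
The Ccr6 window held 2 STAT motifs, beginning 157 and 120 bases before the start, a motif found in 7.0% of the 32851 windows. The one nearer to the start overlaps a GGAAA match on the other strand. The Cxcr4 window held a TATA box, in 2 overlapping matches beginning 32 and 30 bases before the start, which 12.4% of windows hold, and a GGAAA match 199 bases before it. Both windows thus held GGAAA, as 55.6% of all windows do, and neither held an E box or the FOXO motif, which 3.2% of windows hold. Ccr6 has a further annotated start, whose window (chr17:8242276-8242525) held 2 E boxes, 1 GGAAA match and no STAT motif. A match says only that the letters are present.

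The genes with the most similar profiles were sought among 132 or 133 named genes whose values ranged over at least 1 log2 unit. Likeness was the root mean square difference over the 9 arrays after each gene was centred on its own mean. Nearest to Ccr9 was Itgae, the integrin chain CD103 that retains T cells in gut epithelium, at 0.194 log2 units, against a range of 5.61 for Ccr9 itself. The next, Galnt10, was much farther at 0.898, with each gene taken by its probe set with the highest mean. Other probe sets of a gene were not candidates, so this gap depends on that choice. For Igfbp4 those left out had log2 differences from naive cells of -4.36 and -5.14 in deletion and of -4.82 and -6.12 in anergy. The Igfbp4 probe set that was used had -2.95 and -3.12. Nearest to Ccr7 were the TGF-beta receptor chain Tgfbr2 (0.120) and Galnt11 (0.134), and for all 3 of these genes anergy replicate 3 was the lowest of the 9 arrays.

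Nearest to Ccr6 was Il2ra, which encodes CD25, at 0.104, with mean log2 values of 3.64 in deletion, 4.69 in anergy and 3.53 in naive cells. The second nearest to Ccr6 was Cxcr4, and the nearest to Cxcr4 was Ccr6, both at 0.182, followed by Chst12 at 0.192. Cxcr5 was nearest to Csf2ra (0.200) and Pecam1 (0.216), Cx3cr1 to Chsy1 (0.187) and Ugdh (0.237), and Ccr4 to Ndst1 (0.190) and Rrn3 (0.221). For these last 3 receptors the distances are large beside their own ranges of 0.98, 0.65 and 0.43. Genes with ranges as small as these were not candidates. The distances of Cxcr4 are nearly as large beside its range of 1.03 as those of Cxcr5. Nearness says only that the centred values lay close over the single arrays, and the groups need not be ordered alike. Pecam1, for example, was higher in naive (8.54) than in anergy cells (8.25), unlike Cxcr5.

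**Figure D3:**
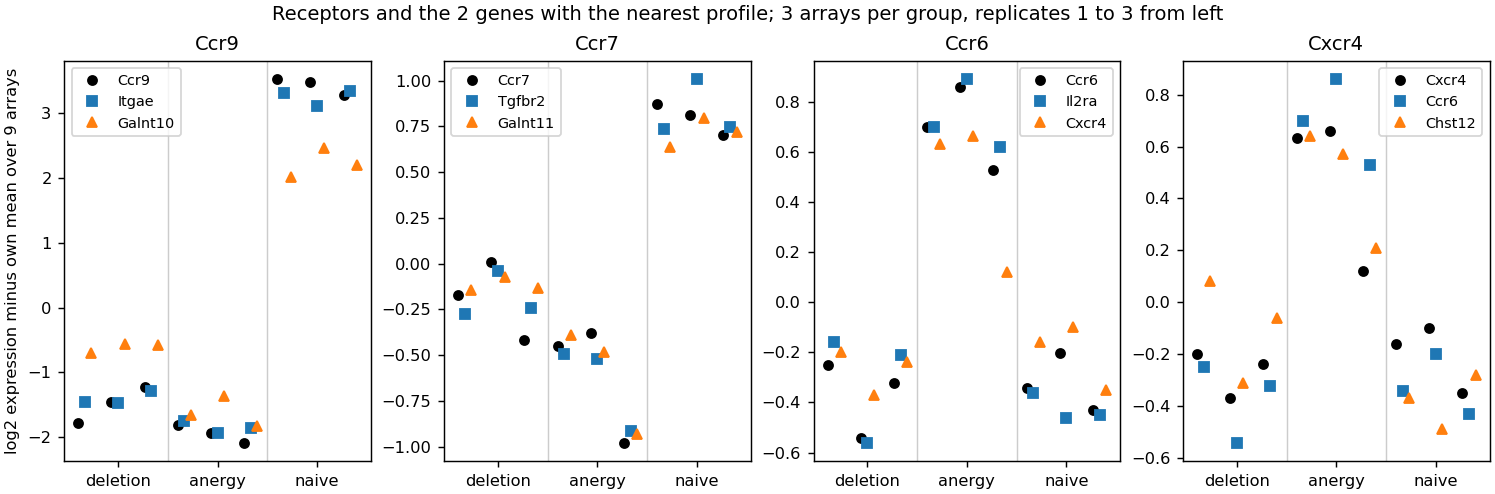
Log2 expression minus each gene's own mean over the 9 arrays (vertical axis) for Ccr9, Ccr7, Ccr6 and Cxcr4 and the 2 genes nearest to each, with 3 arrays per group on the horizontal axis. Itgae follows Ccr9 at a root mean square difference of 0.194, and Il2ra follows Ccr6 at 0.104.

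None of the 9 measured ligand genes of these receptors passed in any of the 3 comparisons: Ccl17, Ccl22, Ccl20, Ccl21a, Ccl21c, Ccl25, Cxcl12, Cxcl13 and Cx3cl1. With a replicate block, Ccl25 alone was called, lower in anergy than in naive cells. Their median log2 difference was -0.03 in deletion against naive, -0.07 in anergy against naive and 0.02 in deletion against anergy. These ligands are made mainly by stromal, epithelial and myeloid cells, and Ccl21a and Ccl21c are near-identical genes whose probe sets may bind both transcripts.

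Of 13 other chemokine receptors measured, deletion cells had 3 higher and 1 lower than naive cells, and the same counts held for anergy against naive cells. Cxcr3, the receptor for interferon-induced chemokines on effector T cells, averaged 9.93 ± 0.16 in deletion, 10.56 ± 0.11 in anergy and 8.21 ± 0.37 in naive cells (log2, SD). It rose by 1.73 ± 0.16 in deletion and 2.35 ± 0.16 in anergy (SE; adjusted p = 3.18e-05 and 2.6e-06). Ccr10, a skin homing receptor, rose by 0.79 ± 0.15 in deletion and 0.94 ± 0.15 in anergy. Cxcr6, the Cxcl16 receptor of tissue-resident T cells, was the 1 that fell, to 8.18 ± 0.26 in deletion and 8.01 ± 0.23 in anergy, against 9.28 ± 0.16 in naive cells (SD).

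None of these 13 passed between deletion and anergy cells, where Cxcr3 differed by -0.62 ± 0.16 (adjusted p = 0.0703). After quantile normalization Cxcr3 was lower in deletion past the threshold. Ccr1, Ccr1l1, Ccr2, Ccr3, Ccr8, Cxcr1, Cxcr2, Xcr1 and Ackr4 passed in no comparison. Over all 13 the median log2 difference was 0.00 in deletion against naive and 0.04 in anergy against naive, beside -0.02 and 0.01 over all probe sets.

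**Figure D4:**
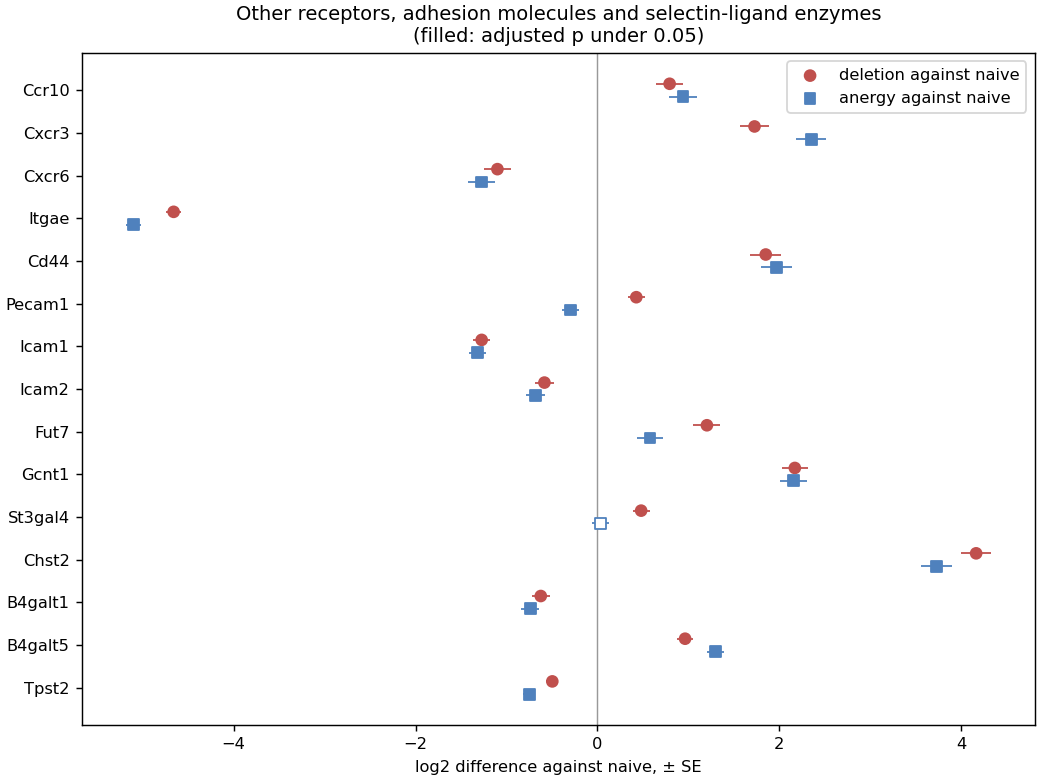
Log2 differences from naive cells (horizontal axis, ± SE) of other homing genes that passed in at least 1 comparison, with circles for deletion and squares for anergy, filled where the adjusted p was under 0.05. Itgae lies lowest, at -4.66 and -5.10, and Chst2 highest, at 4.16 and 3.73.

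Adhesion molecules act with chemokine receptors, since a rolling T cell needs both to leave the blood. Of 12 measured, deletion cells had 2 higher and 3 lower than naive cells, and 1 was higher and 5 lower in anergy than in naive cells. Cd44, an adhesion receptor of antigen-experienced T cells, rose by 1.85 ± 0.17 in deletion and 1.97 ± 0.17 in anergy. Itgae had log2 differences of -4.66 ± 0.09 in deletion and -5.10 ± 0.09 in anergy, Icam1 of -1.27 ± 0.09 and -1.32 ± 0.09, and Icam2 of -0.58 ± 0.10 and -0.68 ± 0.10, and all 3 fell in both groups. Pecam1 was higher in deletion than in naive cells by 0.43 ± 0.09 and lower in anergy by 0.30 ± 0.09, but the fall in anergy was not past the threshold after median centring, after quantile normalization or without anergy replicate 3. Itgae (0.44 ± 0.09) and Pecam1 (0.72 ± 0.09) were higher in deletion than in anergy, and without anergy replicate 3 Pecam1 alone was.

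Among 12 genes of selectin ligand synthesis and tyrosine sulfation, deletion cells had 5 higher and 2 lower than naive cells, and anergy cells had 4 and 2. Tpst2, a Golgi enzyme that sulfates tyrosines, including those at the outer ends of chemokine receptors, fell by 0.50 ± 0.07 in deletion (adjusted p = 0.00039) and by 0.75 ± 0.07 in anergy (adjusted p = 1.52e-05), with means of 9.49, 9.23 and 9.98 in deletion, anergy and naive cells. Its relative Tpst1 passed in no comparison. Chst2, which sulfates selectin ligands, rose by 4.16 ± 0.17 and 3.73 ± 0.17, Gcnt1 by 2.17 ± 0.15 and 2.15 ± 0.15, Fut7 by 1.20 ± 0.15 and 0.58 ± 0.15 and B4galt5 by 0.96 ± 0.09 and 1.30 ± 0.09. A different probe set of Gcnt1 gave 0.19 and 0.26 and did not pass. B4galt1 fell by 0.62 ± 0.10 and 0.74 ± 0.10.

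St3gal4 rose in deletion by 0.48 ± 0.09, and in anergy its difference of 0.04 ± 0.09 did not pass. It was also the 1 gene of the 12 that was higher in deletion than in anergy (0.44 ± 0.09; adjusted p = 0.0315), a call lost after median centring and without anergy replicate 3. With a replicate block 2 of the 12 were higher and 1 lower, as Fut7 and B4galt5 joined it.

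Of 5 measured genes listed for naive T cells, 4 were lower in deletion than in naive cells and 1 did not pass. In anergy against naive cells all 5 were lower. Il7r and Igfbp4 were lower in both groups, as were Ccr7 and Ccr9. Il7r, the interleukin-7 receptor chain, averaged 7.96 ± 0.37 in deletion, 7.82 ± 0.35 in anergy and 10.21 ± 0.11 in naive cells (SD). Ccr7 and Ccr9 are on this list themselves, so it is no separate evidence for them.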

How the data were processed

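The deposited values are log2 expression values, 1 per probe set and array, of 9 single-colour Affymetrix arrays; RMA is the only step in the submitters' processing notes, and the sources used here give neither its version nor the array annotation. The values ran from 1.67 to 13.86 and were used as deposited. RefSeq accessions, without version, named 963 of 1246 probe sets (77.3%) through a table of GRCm38.p6. A gene is given by its probe set with the highest mean, and both probe sets of Ccr9 are shown. limma 3.58.1 (R 4.3.3) fitted the 3 comparisons over all 9 arrays and all 1246 probe sets, two-sided, with Benjamini-Hochberg adjustment and a threshold of 0.05, which left 6 residual and 3.65 prior degrees of freedom; the fit was tested on simulated data. The small number of arrays limits the precision. The named genes were all 7 receptors, list genes past the threshold in at least 1 comparison, and the 2 genes nearest to each receptor. Other genes are named as list members; list counts cover all measured genes, and results of some genes are not reported here. The members and lists were chosen with earlier results of these data known. Promoter motifs were chosen after the values were seen. The summed linear level is the sum of 2 raised to each log2 value. Deviations from the group means correlated between deletion and anergy arrays of the same replicate number (r = 0.195, 0.270 and 0.280). Arrays of different replicate numbers were not compared in this way, so whether the numbers mark pairs was not tested. The labels do not state a pairing.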

Additional observations from a re-analysis of the deposited data

Results flagged for a closer look

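Ccr6 and Cxcr4 changed differently from naive cells under the weak and the strong antigen signal, by the test of that difference. For Ccr6 the change in deletion cells was lower than that in anergy cells by 1.07 log2 units (a difference of -1.07; adjusted p = 0.000368), with all 3 deletion arrays below all 3 anergy arrays. For Cxcr4 the difference was -0.74 (adjusted p = 0.0191), again with no overlap. Groups of 3 arrays are too small for a test of single outlying arrays.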

How the results depend on the processing

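Of the receptors called, Ccr7 and Ccr9 in deletion against naive, Ccr6, Ccr7, Ccr9, Cxcr4 and Cx3cr1 in anergy against naive, and Ccr6 in deletion against anergy kept direction and call in all 18 alternatives. The count of receptors higher in deletion than in naive cells was 0 instead of 1 without moderation of the variances, and 0 to 1 when single arrays were left out. The count lower in deletion than in anergy was 1 instead of 2 after median centring, in the fit of the 2 groups only and without moderation, 3 after quantile normalization and with array weights, where Cx3cr1 passed too, and 1 to 2 when single arrays were left out; the count higher was 0 to 1. Signs turned only for differences near 0 that never passed: Cxcr4 in deletion against naive was 0.029 after quantile normalization, Ccr6 in deletion against naive ran from -0.107 to 0.038 and Ccr4 in deletion against anergy from -0.005 to 0.060 when single arrays were left out. The causes were not tested. Over all probe sets, deletion against anergy gave 26 higher and 16 lower. It gave 13 and 13 after median centring, 32 and 38 after quantile normalization, 8 and 13 in the fit of the 2 groups, 44 and 31 with array weights, 5 and 9 without moderation, and 8 to 30 and 12 to 19 when single arrays were left out. With a replicate block these counts were 33 and 22; the block changed no call of a receptor in any comparison. Against naive cells replicate numbers were not correlated throughout (r from -0.154 to 0.274). The probe set of Ccr4 was absent from the setting that left out dim probe sets, so Ccr4 had 17 alternatives. Without detection calls, dim receptors such as Ccr4 cannot be told from background.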

Other observations

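On anergy replicate 3 bright and dim probe sets differed in where the array stood. It was the lowest of the anergy arrays for 63.9% of the probe sets above the median level and for 12.8% of those below it, and the highest for 26.5% and 53.9%. The SD of its values over all probe sets was 2.29, against 2.40 to 2.46 on the other arrays. Among the receptors it was the lowest anergy array for 6 and the highest for Cx3cr1, with Ccr9 taken by its brighter probe set.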
